A study of Rattus norvegicus with 3 samples.

Results

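The genes described here are members of the NF-kappaB and interferon response, 41 named genes that cover the NF-kappaB subunits and their inhibitors, Toll-like receptors, chemokines and cytokines, adhesion molecules, interferon regulatory factors (IRF), STAT factors, interferon-stimulated genes and the class I antigen pathway. The list was chosen by pathway and selected on the measured signals, because several of the genes differ strongly between the arrays of this series, so their differences between arrays are described and not tested. A probe set, the group of oligonucleotides that reads 1 transcript on an Affymetrix array, was taken for a member when its only gene symbol was that member, and 51 of the 20826 probe sets with 1 gene qualified. They measured 40 of the 41 members, out of 14217 genes in all, and Nfkbie was not analysed here. Where a member had more than 1 probe set, the brightest by mean log2 signal was used.

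All 3 samples belong to 1 group, medullary thick ascending limb (mTAL) of male Sprague-Dawley rats 7 to 8 weeks old, the segment of the tubule that takes up sodium chloride without water, whose transcriptome was the aim of the study. Every animal had received heparin and furosemide, a loop diuretic, 30 minutes before death. Perfusion of the kidneys with cold saline was followed by collagenase and hyaluronidase, outer medulla was digested for 60 minutes, and tubules were separated on a Percoll gradient. None of the 3 samples is untreated or undigested tissue, and nothing states whether a sample is 1 rat or a pool, so errors and p-values cover the spread between these samples only, which may be technical. The replicate numbers carry no order.

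NF-kappaB is a dimer of Rel-family proteins that is held in the cytoplasm by inhibitory IkappaB proteins and is released when receptors such as Toll-like, tumour necrosis factor and interleukin-1 receptors activate the IkappaB kinase complex. In the nucleus it switches on chemokines, adhesion molecules and its own inhibitors, so that the response limits itself. Interferons act through Janus kinases on transcription factors that bind the interferon-stimulated response element (ISRE) of antiviral genes or the gamma-activated sequence (GAS). Tubule epithelium, endothelium and resident leukocytes of the kidney can all mount both responses.

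The preparations carried the markers of the thick limb. All 14 TAL markers passed the detection test used below, with summed signals of 271866, 264606 and 248143 on replicates 1, 2 and 3, led by Umod (57036 ± 8031, mean ± SD, n = 3) and Egf (45192 ± 905). Markers of other cells were present as well and differed between arrays, and their values stand beside the results they touch. Each pair of arrays had a Pearson's r of log2 signal, computed over probe sets that are not independent of one another, between 0.923 and 0.927. Values are linear signals on 1 overall scale, with a trimmed mean of about 1000 on each array (1000.35, 1000.33 and 1000.34). Probe sets hybridise with unequal strength, so signals of different genes are not read as relative amounts of RNA. The detection cutoff, which is set on other genes, and the sums over gene lists carry this limit too.

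Of the 40 measured members, 22 were detected. A gene was called detected when its log2 signal lay above a cutoff set on each array at the 95th percentile of 77 genes known from other tissues (limma, one-sided, Benjamini-Hochberg adjusted p under 0.05 over all 14217 genes), and this cutoff stood at 388, 318 and 371 on replicates 1, 2 and 3. Over all genes 54.3% were called, so the members' share of 55% was near that of genes at large. The median distance from the cutoff was 1.20 log2 units for the members and 0.89 for all genes. The call also depends on the spread between arrays. The 22 called members were the 22 that lay above the cutoff on every array. Another 13 lay above it on 1 or 2 arrays, and 5 (Tlr2, Tlr4, Ccl20, Irf8 and Socs1) on none. Counted by array, 22 members exceeded the cutoff on replicate 1, 31 on replicate 2 and 33 on replicate 3. Of all 14217 genes, 8236, 8888 and 8710 did so, also fewest on replicate 1, where the cutoff was highest. Of these genes 1130 lay above it on 1 or 2 arrays and 5051 on none.

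**Figure D1:**
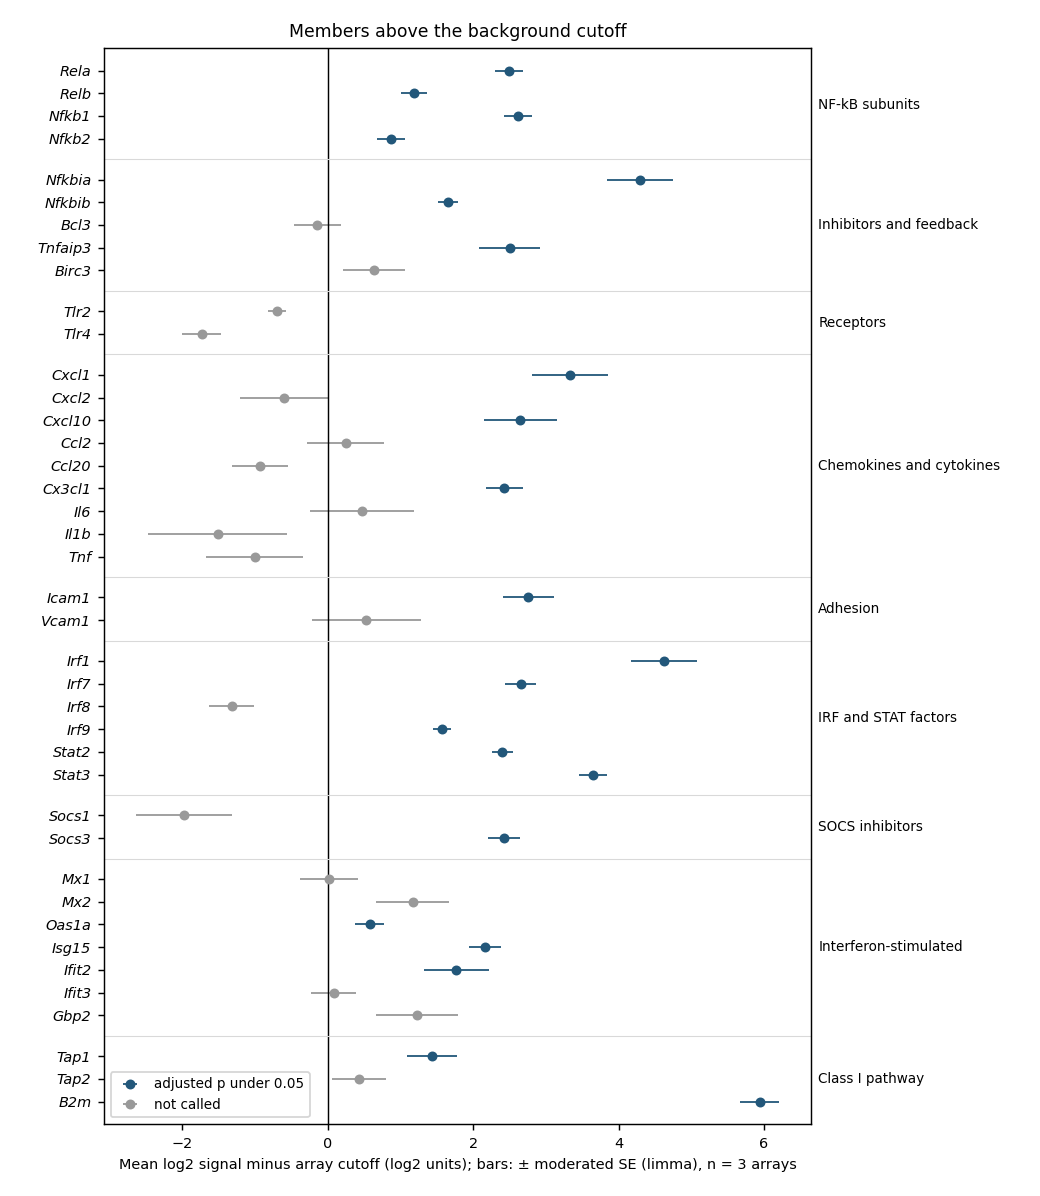
Mean log2 signal minus the array cutoff (x axis, log2 units) of the 40 measured members, by role; bars are ± moderated SE from limma with n = 3 arrays, and dark points mark the 22 members with an adjusted p under 0.05. The points run from -1.98 for Socs1 to 5.94 for B2m, and all 4 NF-kappaB subunits are dark.

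The members were lowest on replicate 1. That array gave the lowest signal for 36 of 40 members and the highest for none, while 18 were highest on replicate 2 and 22 on replicate 3. Over all genes, replicate 1 was lowest for 33.7% and highest for 33.9%, and replicates 2 and 3 were highest for 32.1% and 34%. The median difference between replicates 2 and 1 was 0.92 log2 units over the members and -0.01 over all genes, and between replicates 3 and 1 it was 0.95 and 0.01. The signal spanned 2-fold or more over the arrays for 23 members, against 27.2% of all genes. Among genes with a mean above the cutoff, 17 of 31 members and 5.57% of genes did so. Because the members were picked for such differences, nothing is read from these counts. Without replicate 1, 8 members and 2226 of all genes (3862 with every array) spanned 2-fold. Each array is 1 preparation, so its deviation has no replicate test, and in bulk tissue fewer cells of a type cannot be told apart from less RNA per cell.

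**Figure D2:**
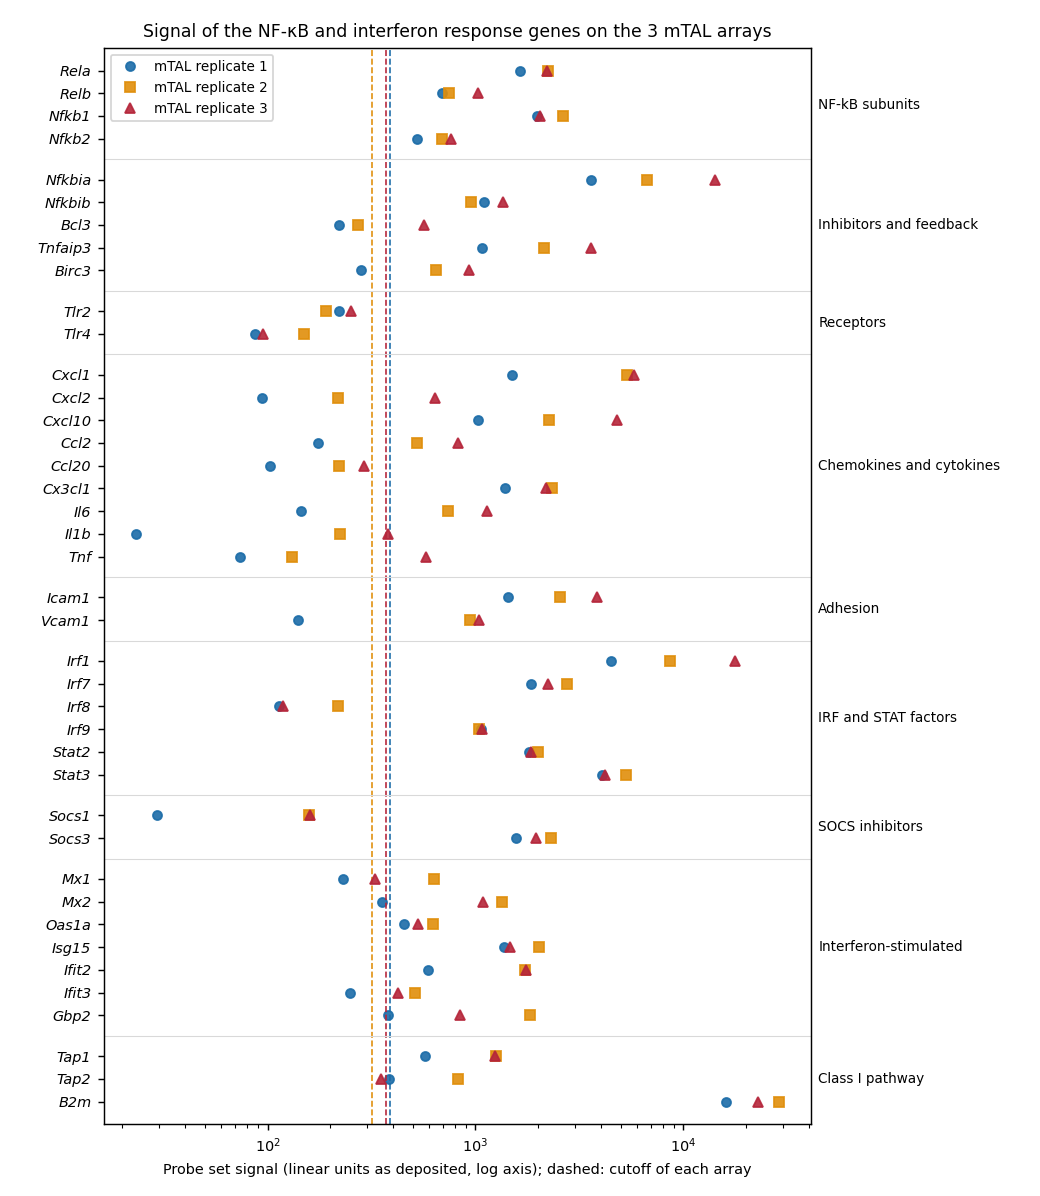
Probe set signal of each measured member (x axis, linear units on a log scale) on mTAL replicate 1 (circles), replicate 2 (squares) and replicate 3 (triangles), by role, with dashed lines at the 3 array cutoffs. The circle is the leftmost point for 36 of the 40 members.

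The members did not share 1 profile over the arrays. Chemokines, cytokines, adhesion molecules and inhibitors were mostly highest on replicate 3 (15 of 16 measured), against 34% of all genes. Interferon-stimulated and class I pathway genes were mostly highest on replicate 2 (9 of 10), against 32.1%. The members were picked for differences between arrays, so this split is described only. Many of these genes were not detected, among them 6 of the 9 chemokines and cytokines and 4 of the 7 interferon-stimulated genes. For some, replicates 2 and 3 were nearly equal or the highest array depended on the probe set. The NF-kappaB subunits, STAT factors and most IRF factors varied by less than 2-fold. The median difference of replicate 3 minus replicate 2 was 0.76 log2 units over the inhibitors, 0.65 over the chemokines and cytokines, -0.30 over the interferon-stimulated genes and -0.34 over the class I pathway. Over all genes it was 0.02.

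**Figure D3:**
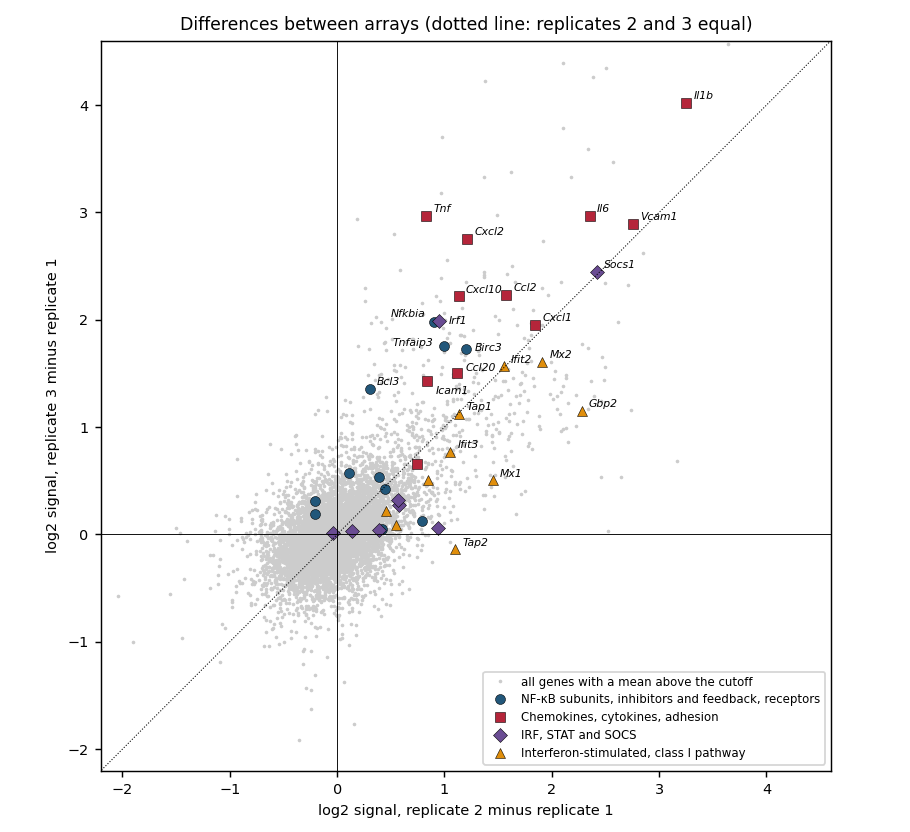
Log2 signal of replicate 2 minus replicate 1 (x axis) against replicate 3 minus replicate 1 (y axis) for the measured members, by role class, and for the 8566 genes with a mean above the cutoff (grey, of which 15 lie outside the axes). Chemokines, cytokines and adhesion molecules (squares) lie mostly above the dotted line on which replicates 2 and 3 are equal, and interferon-stimulated and class I genes (triangles) mostly below it; labels name members that span 2-fold or more.

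All 4 measured NF-kappaB subunits were detected, and each varied by less than 1.5-fold over the arrays. Rela, the p65 subunit with the transactivation domain of the canonical dimer, had signals of 1637 in replicate 1, 2236 in replicate 2 and 2202 in replicate 3, 2.49 ± 0.20 log2 units above the cutoff (moderated SE, n = 3; limma adjusted p = 0.000564). Nfkb1, which encodes p105 and the p50 subunit made from it, had 1969 in replicate 1, 2626 in replicate 2 and 2038 in replicate 3 (2.62 ± 0.20, limma adjusted p = 0.000495). The pair of the non-canonical pathway, Relb and Nfkb2 (the p100 precursor of p52), had 692, 749 and 1028 and 526, 689 and 763 on replicates 1, 2 and 3, with limma adjusted p of 0.00395 and 0.0136. The widest ratio of highest to lowest array among the 4 was 1.49, for Relb. All 4 were lowest on replicate 1, and the call of Nfkb2 was lost without replicate 2 (adjusted p = 0.0663) or without replicate 3 (adjusted p = 0.0669).

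The inhibitors and feedback genes, most of which NF-kappaB itself induces, were highest on replicate 3 in all 5 measured cases. Nfkbia, the gene of IkappaB alpha, had signals of 3589.6 in replicate 1, 6692 in replicate 2 and 14159 in replicate 3, a 3.94-fold span between arrays that all lay above the cutoff (4.29 ± 0.45 log2 units, limma adjusted p = 0.00136). Tnfaip3, the gene of the ubiquitin-editing enzyme A20 that shuts off signalling to the kinase, had 1073 in replicate 1, 2132 in replicate 2 and 3614 in replicate 3, a 3.37-fold span (2.50 ± 0.42, limma adjusted p = 0.00549). In both, each array stood apart from the next by more than 1.5-fold. Nfkbib, the gene of IkappaB beta, which is not known for such strong feedback, varied less, at 1096, 950 and 1361, and was the only one of the 5 with its lowest signal on replicate 2 (limma adjusted p = 0.000695). Birc3, an inhibitor of apoptosis and ubiquitin ligase of the tumour necrosis factor receptor complex, had 281, 647 and 929 and lay above the cutoff on replicates 2 and 3 only (limma adjusted p = 0.193, and 0.0105 without replicate 1). The second p-value rests on the 2 arrays on which Birc3 was high and adds no support. Bcl3, an atypical IkappaB that acts in the nucleus with p50 and p52, had 220.5, 272 and 565 and exceeded the cutoff on replicate 3 alone (limma adjusted p = 1).

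The promoter windows of the members, 250 bases before to 50 after the RefSeq start on the rat build GRCr8, were searched on both strands for the NF-kappaB consensus (the kappaB motif), the ISRE core GAAA-NN-GAAA and the GAS motif TTC-NNN-GAA. Windows were found for 35 of the 41 listed members, 34 of them measured. The windows of Nfkbia (chr6:78597023-78597322, minus strand) and Tnfaip3 (chr1:15543930-15544229, minus strand) are shown because both inhibitors had the stepped profile over the arrays. Capitals mark the matches to the kappaB motif, 1 in Nfkbia that begins 31 bases before the start, and 3 in Tnfaip3 that begin 170, 67 and 55 bases before it.
Nfkbia: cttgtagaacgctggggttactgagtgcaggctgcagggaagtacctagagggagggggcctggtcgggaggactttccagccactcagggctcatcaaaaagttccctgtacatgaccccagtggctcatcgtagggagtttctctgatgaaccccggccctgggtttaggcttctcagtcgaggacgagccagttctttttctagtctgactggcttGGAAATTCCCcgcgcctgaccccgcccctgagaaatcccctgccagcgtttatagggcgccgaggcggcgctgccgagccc
Tnfaip3: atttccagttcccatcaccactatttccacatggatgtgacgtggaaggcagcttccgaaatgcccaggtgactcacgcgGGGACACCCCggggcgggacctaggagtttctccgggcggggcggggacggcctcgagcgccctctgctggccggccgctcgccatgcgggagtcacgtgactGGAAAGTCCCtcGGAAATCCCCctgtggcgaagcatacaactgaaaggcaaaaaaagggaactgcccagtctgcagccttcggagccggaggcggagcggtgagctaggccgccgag

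Neither measured Toll-like receptor was detected. Tlr2, which senses bacterial lipoproteins, had signals of 220.1 in replicate 1, 191 in replicate 2 and 251 in replicate 3, and Tlr4, the lipopolysaccharide receptor, had 87.1 in replicate 1, 150.4 in replicate 2 and 94.9 in replicate 3, both below the cutoff on every array (limma adjusted p = 1 for both). A gene below the cutoff may still be expressed at a level that these arrays cannot separate from background. The window of Tlr2 held 3 kappaB matches, which begin 206, 205 and 42 bases before the start, the first 2 overlapping.

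Chemokines and cytokines were lowest on replicate 1 in all 9 cases and highest on replicate 3 in 8. Only Cxcl1, Cxcl10 and Cx3cl1 were detected. Cxcl1, a neutrophil attractant, had signals of 1496 in replicate 1, 5363 in replicate 2 and 5803 in replicate 3, and replicates 2 and 3 were alike and well above replicate 1, with a span of 3.88-fold (3.33 ± 0.53 log2 units above the cutoff, limma adjusted p = 0.00469). Cxcl10, an attractant of T cells that answers to interferon as well as NF-kappaB, had 1033 in replicate 1, 2266 in replicate 2 and 4809 in replicate 3, a 4.66-fold span in which the 3 arrays were well apart (2.65 ± 0.51, limma adjusted p = 0.00848, and 0.0607 without replicate 2). Cx3cl1, fractalkine, the membrane-bound attractant of monocytes, had 1388 in replicate 1, 2331 in replicate 2 and 2191 in replicate 3, was the only chemokine with its highest value on replicate 2, and spanned 1.68-fold (limma adjusted p = 0.0013).

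The other chemokines and cytokines were above the cutoff on some arrays or on none, so their differences involve signals under it and no folds are given. Il6, a cytokine that acts through STAT3, had 144, 737 and 1132 on replicates 1, 2 and 3, and the monocyte attractant Ccl2 had 176, 524 and 824. For both, replicates 2 and 3 lay above the cutoff and replicate 1 below it, and without replicate 1 both were called (limma adjusted p = 0.00775 for Il6 and 0.0229 for Ccl2, against 0.472 and 0.57 with all arrays). The genes were picked for differences between arrays, so a call without the low array follows partly from that choice and adds no support. Cxcl2, a neutrophil attractant, had 94.5, 219 and 638, and the inflammatory cytokines Tnf and Il1b had 74.0, 132 and 579 and 23.3, 222 and 379. These 3 exceeded the cutoff on replicate 3 alone, Il1b by a small margin (379 against 371). Ccl20, an attractant of dendritic cells and T helper cells, stayed below it on every array, at 102, 221 and 290.4. A second probe set of Tnf had 65.1, 81.9 and 39.7 and did not show the high value on replicate 3.

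The windows of Cxcl1 (chr14:17479272-17479571, minus strand), Cxcl10 (chr14:15988816-15989115, plus strand) and Il6 (chr4:5894526-5894825, minus strand) are shown because these genes were well below the other arrays on replicate 1. In Cxcl10 replicates 2 and 3 were well apart too. Capitals mark the motif matches. Cxcl1 has 2 overlapping kappaB matches that begin 84 and 83 bases before the start, 1 on each strand, and Il6 has 1 that begins 68 bases before it. Cxcl10 has an ISRE core match that begins 243 bases before the start and kappaB matches that begin 187, 128 and 127 bases before it, the last 2 overlapping.
Cxcl1: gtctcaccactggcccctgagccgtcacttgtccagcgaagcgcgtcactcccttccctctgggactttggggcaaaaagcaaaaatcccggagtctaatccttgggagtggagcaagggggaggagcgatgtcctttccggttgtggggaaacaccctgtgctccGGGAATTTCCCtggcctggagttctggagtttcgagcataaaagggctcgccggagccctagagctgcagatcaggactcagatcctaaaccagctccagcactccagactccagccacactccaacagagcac
Il6: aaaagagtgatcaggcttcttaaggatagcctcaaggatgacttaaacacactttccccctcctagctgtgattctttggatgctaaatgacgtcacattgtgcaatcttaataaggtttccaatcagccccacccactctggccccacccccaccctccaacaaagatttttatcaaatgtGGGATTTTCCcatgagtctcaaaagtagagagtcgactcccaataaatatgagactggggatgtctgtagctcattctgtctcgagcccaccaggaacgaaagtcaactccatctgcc
Cxcl10: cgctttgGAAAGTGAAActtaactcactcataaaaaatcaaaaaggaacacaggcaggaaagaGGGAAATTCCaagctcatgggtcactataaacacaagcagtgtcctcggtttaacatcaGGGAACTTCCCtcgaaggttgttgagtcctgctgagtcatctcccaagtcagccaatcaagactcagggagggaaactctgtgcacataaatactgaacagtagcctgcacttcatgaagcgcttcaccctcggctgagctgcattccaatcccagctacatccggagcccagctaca

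Both adhesion molecules, which let leukocytes attach to endothelium and to activated epithelium, were highest on replicate 3 and lowest on replicate 1. Icam1 had signals of 1430 in replicate 1, 2547 in replicate 2 and 3855 in replicate 3, a 2.70-fold span (2.75 ± 0.35 log2 units above the cutoff, limma adjusted p = 0.00241). Vcam1 had 139.6 in replicate 1, 946 in replicate 2 and 1036 in replicate 3, below the cutoff on replicate 1 and nearly equal on the other arrays (limma adjusted p = 0.448, and 0.00447 without replicate 1). The second p-value rests on the 2 arrays on which Vcam1 was high and adds no support. The window of Vcam1 held a kappaB match and an ISRE core match, and that of Icam1 a GAS match.

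Of the IRF and STAT factors, Irf1 stood apart from the rest. Irf1, an early transcription factor that NF-kappaB and interferons induce, had signals of 4465 in replicate 1, 8649 in replicate 2 and 17765 in replicate 3, a 3.98-fold span close to that of Nfkbia (3.94-fold), with all arrays above the cutoff (4.62 ± 0.46 log2 units, limma adjusted p = 0.00111). Stat3, the factor downstream of interleukin-6 receptors, had 4056 in replicate 1, 5314 in replicate 2 and 4180.3 in replicate 3 (limma adjusted p = 0.000201). Stat2 and Irf9, which act together in the type I interferon response, hardly varied, at 1810, 1998 and 1855 and 1066, 1036 and 1079 (limma adjusted p = 0.000289 and 0.000566), with spans of 1.10-fold and 1.04-fold. Their second probe sets varied more, at 1268, 1552 and 1647 for Stat2 and 602, 615 and 750 for Irf9, both highest on replicate 3. Irf7, the factor that amplifies type I interferon production, had 1849.6 in replicate 1, 2754 in replicate 2 and 2233 in replicate 3 (limma adjusted p = 0.000632), highest on replicate 2. Irf8, a factor of myeloid and B cells, stayed below the cutoff on every array at 114, 218 and 118 (limma adjusted p = 1).

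The window of Irf1 (chr10:38417685-38417984, plus strand) is shown beside its stepped profile. Capitals mark a GAS match that begins 142 bases before the start and a kappaB match, found on both strands, that begins 65 bases before it.
Irf1: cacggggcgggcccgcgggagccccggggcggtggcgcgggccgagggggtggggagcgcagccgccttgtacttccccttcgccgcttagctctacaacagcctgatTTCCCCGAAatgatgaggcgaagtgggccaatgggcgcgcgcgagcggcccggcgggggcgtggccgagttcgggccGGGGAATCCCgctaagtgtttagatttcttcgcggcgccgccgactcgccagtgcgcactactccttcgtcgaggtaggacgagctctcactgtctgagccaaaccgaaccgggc

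The suppressors of cytokine signalling, which bind Janus kinases and their receptors, differed in detection. Socs3, induced by STAT3, had signals of 1559 in replicate 1, 2318 in replicate 2 and 1951 in replicate 3, a 1.49-fold span (2.42 ± 0.22 log2 units above the cutoff, limma adjusted p = 0.000804). Socs1, which is induced by interferons, had 29.4, 157 and 161 and was below the cutoff on each array (limma adjusted p = 1). A second, dimmer probe set of Socs1 ran the other way, at 112, 43.9 and 23.2.

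Interferon-stimulated genes were lowest on replicate 1 in all 7 cases and highest on replicate 2 in 6, and Isg15, Ifit2 and Oas1a were detected. Isg15, a ubiquitin-like modifier, had signals of 1378 in replicate 1, 2016 in replicate 2 and 1468 in replicate 3 (2.16 ± 0.22 log2 units above the cutoff, limma adjusted p = 0.00122). Ifit2, which binds viral RNA, had 592 in replicate 1, 1737 in replicate 2 and 1753 in replicate 3, a 2.96-fold span in which replicates 2 and 3 were nearly equal (1.77 ± 0.45, limma adjusted p = 0.0195, with 0.0973 without replicate 2 and 0.0710 without replicate 3). Oas1a, a sensor of double-stranded RNA, had 455 in replicate 1, 625 in replicate 2 and 529.7 in replicate 3 and was close to the threshold (limma adjusted p = 0.045, with 0.198 when Myh1 was among the genes that set the cutoff, 0.107 without replicate 2 and 0.124 without replicate 3).

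The 4 others passed the cutoff on some arrays only. Gbp2, a guanylate-binding protein induced by interferon gamma, had 378, 1834 and 841 on replicates 1, 2 and 3 (limma adjusted p = 0.0917), with replicate 1 just below the cutoff. Mx2, a dynamin-like antiviral GTPase, had 356, 1339 and 1087 (limma adjusted p = 0.0804), and the related Mx1 had 230.5, 630 and 327 (limma adjusted p = 0.804). Ifit3, a partner of Ifit2, had 248, 514 and 423 (limma adjusted p = 0.682). Replicate 2 was the highest array for each of these 4. Without replicate 1, Gbp2 and Mx2 were called (limma adjusted p = 0.0213 and 0.00528), and Mx2 also without replicate 3 (0.0361). Such fits hold 2 arrays each, and those without replicate 1 leave out the low array, so these calls add no support. The second probe set of Mx2 was also highest on replicate 2, at 636, 898 and 545.

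The windows of Gbp2 (chr2:234005477-234005776, plus strand) and Oas1a (chr12:41330216-41330515, plus strand) are shown as interferon-stimulated members that were highest on replicate 2. Capitals mark the ISRE core match of Gbp2, on the opposite strand, that begins 31 bases before the start. In Oas1a they mark 2 overlapping ISRE core matches that begin 41 and 35 bases before the start and a GAS match that begins 199 bases before it.
Gbp2: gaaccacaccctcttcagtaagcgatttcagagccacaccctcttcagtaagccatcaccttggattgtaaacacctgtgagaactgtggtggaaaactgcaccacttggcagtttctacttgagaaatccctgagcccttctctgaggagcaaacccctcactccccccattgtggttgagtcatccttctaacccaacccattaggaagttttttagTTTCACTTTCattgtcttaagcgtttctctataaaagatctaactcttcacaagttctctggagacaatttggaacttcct
Oas1a: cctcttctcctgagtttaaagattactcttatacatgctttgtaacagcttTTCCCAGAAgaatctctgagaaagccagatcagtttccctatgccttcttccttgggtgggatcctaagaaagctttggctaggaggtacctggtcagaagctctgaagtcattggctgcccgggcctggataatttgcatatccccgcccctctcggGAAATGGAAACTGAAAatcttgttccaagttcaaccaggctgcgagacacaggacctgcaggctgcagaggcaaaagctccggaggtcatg

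In the class I pathway, which shows peptides from inside the cell to T cells, all 3 members were highest on replicate 2. B2m, the light chain of class I molecules, had signals of 16056 in replicate 1, 28861 in replicate 2 and 22775 in replicate 3, a 1.80-fold span (5.94 ± 0.27 log2 units above the cutoff, limma adjusted p = 0.000147). The peptide transporter subunits are Tap1 and Tap2. Tap1 had 572 in replicate 1, 1255 in replicate 2 and 1247 in replicate 3, with replicates 2 and 3 nearly equal and a span of 2.20-fold (limma adjusted p = 0.0171), and its call was lost without replicate 2 (adjusted p = 0.0838), without replicate 3 (0.0665), or when its probe sets were averaged. Tap2 had 385 in replicate 1, 825 in replicate 2 and 350.2 in replicate 3, was the only member lowest on replicate 3, and was not called (limma adjusted p = 0.275). A second probe set of B2m gave 3781, 7196 and 7251, again lowest on replicate 1, with replicates 2 and 3 close together. The window of Tap1 (chr20:4668494-4668793, minus strand) is shown because it held both motifs in a gene that was as high on replicate 3 as on replicate 2. Capitals mark an ISRE core match on the opposite strand that begins 121 bases before the start and a kappaB match that begins 55 bases before it.
Tap1: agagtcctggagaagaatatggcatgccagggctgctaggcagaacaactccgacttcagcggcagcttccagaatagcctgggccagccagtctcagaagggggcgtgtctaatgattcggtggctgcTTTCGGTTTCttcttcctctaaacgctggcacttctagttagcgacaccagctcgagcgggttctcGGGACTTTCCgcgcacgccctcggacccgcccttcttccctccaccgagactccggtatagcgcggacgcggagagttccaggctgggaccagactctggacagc

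The kappaB motif was found in the windows of 17 of the 34 measured members that had one (50%), against 7.51% of 33469 rat promoter windows of the same length, and the ISRE core in 10 (29.4%), against 3.92%. GAS matches stood in 6 (17.6%), against 8.87%. Many members are textbook targets of these factors, so the shares describe the list and were not tested. Of the 12 members with a kappaB match and no ISRE core, 10 were higher on replicate 3 than on replicate 2 (median 0.51 log2 units), against 52.4% of all genes. Of the 5 with an ISRE core and no kappaB match (Irf7, Oas1a, Ifit3, Gbp2 and Tap2), 0 were (median -0.30). The 5 with both, Cxcl10, Vcam1, Socs1, Tap1 and B2m, were split, 3 higher on replicate 3. Among 12 members with neither, 5 were higher on replicate 3, including Tnf, Il1b and Icam1, for which no match says only that these letters are not in this window. The members were chosen with differences between arrays in view, so this split describes them only. It was not seen over genes at large: among genes with a mean above the cutoff and a single window, 321 of 620 with a kappaB match alone (51.8%) and 101 of 168 with an ISRE core match alone (60.1%) were higher on replicate 3, against 54.6% of all 6828. A match is a string of letters, and no binding was measured.

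**Figure D4:**
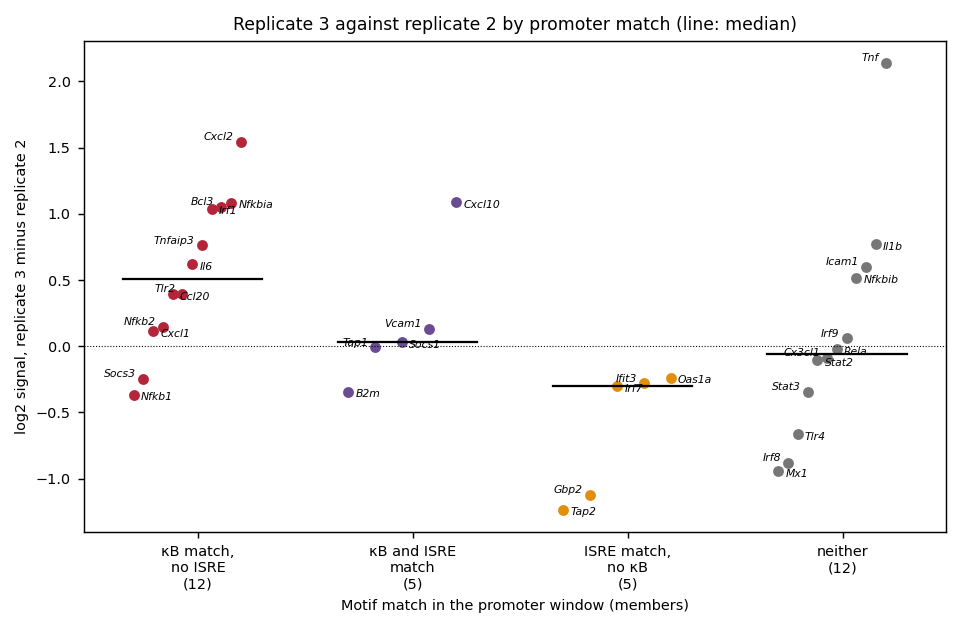
Log2 signal of replicate 3 minus replicate 2 (y axis) for the 34 measured members with a promoter window, by motif match (x axis, with the number of members); each point is a member and each line a group median. Of the 12 members with a kappaB match alone, 10 lie above 0, and the 5 with an ISRE core match alone lie below it. Over all genes with these matches, a mean above the cutoff and a single window, the shares above 0 were 51.8% and 60.1%. The members shown were not filtered by the cutoff.

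Of the 10 members with more than 1 probe set, 8 had probe sets that differed in which array was highest, so the choice between replicates 2 and 3 depended on the probe set for Bcl3, Tnf, Stat2, Stat3, Socs1, Ifit2, Tap1 and B2m. In several of these the other probe set was dim. Of all 51 probe sets of members, 42 were lowest on replicate 1, and 6 of the 11 probe sets not used above were.

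Other genes of the same pathways were read in the same way. Of 66 measured genes of the NF-kappaB pathway, 40 (60.6%) were called, and of 66 of the interferon pathway 43 (65.2%), against 54.3% of all genes. Their median span over the arrays was 0.47 and 0.49 log2 units, against 1.30 for the members and 0.47 for all genes. The wider span of the members follows from how they were picked and is no result. Replicate 1 was lowest for 35 of the 66 NF-kappaB genes and for 31 of the 66 interferon genes, against 33.7% of all genes. The 40 detected NF-kappaB genes were highest on replicates 1, 2 and 3 in 13, 12 and 15 cases. The 43 detected interferon genes were so in 9, 17 and 17 cases, and all 7718 detected genes in 2898, 2252 and 2568. The median of replicate 3 minus replicate 2 was 0.01 log2 units over the 66 NF-kappaB genes and -0.02 over the 66 interferon genes. The members' split between replicates 2 and 3 was thus not seen over these lists.

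Among the other NF-kappaB genes named for their high signal, some hardly varied. Chuk, the alpha subunit of the IkappaB kinase, had signals of 5274, 5173 and 5211 on replicates 1, 2 and 3 (limma adjusted p = 0.000103), and Csnk2a1, the catalytic subunit of casein kinase 2, had 4296, 4388 and 4526. Sod2, the mitochondrial superoxide dismutase, had 12862, 9659 and 10987 and was highest on replicate 1, unlike any member. The 4 widest differences among detected genes of this list all had the array order of Nfkbia. They were the chemokine Cxcl11 (1268, 2187 and 5644), the nuclear IkappaB gene Nfkbiz (1407, 2008 and 5644), the transcription factor Cebpd (535, 2004 and 2064) and the TWEAK receptor gene Tnfrsf12a (1633, 3223 and 4824). Ier3 (6693, 9673 and 19330.2), an early response gene, and Gadd45b (5405, 7103 and 15118), a stress gene that curbs apoptosis, were also highest on replicate 3, and Cxcl16, a membrane-bound chemokine, had 3977, 4532 and 5416. Ier3 also stands in the list of immediate early genes counted below.

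Among the other interferon genes, 3 of the 4 widest differences had their highest signal on replicate 2. The 43 detected genes of this list were highest on replicate 2 in 17 cases and on replicate 3 in 17. The chaperones Canx (20082, 19696 and 19469) and Calr (11229, 8738 and 10738), the disulfide isomerase Pdia3 (12312, 12052 and 9242) and the proteasome activator Psme1 (19596, 17554 and 18226), which all serve class I assembly, were highest on replicate 1. The Janus kinase Jak1 (8985, 9688 and 8415) varied little, and Ifitm2 (22328, 17357 and 17162), an antiviral membrane protein, was highest on replicate 1. The widest differences among detected genes were those of Ifitm3 (1557, 5348 and 3699.9), a close relative of Ifitm2, Rsad2 (726, 1618 and 2344), the gene of viperin, Ifi27 (2889.6, 8246 and 5573) and Bst2 (1311, 3202 and 1982), the gene of tetherin. All 4 were lowest on replicate 1, and all except Rsad2 were highest on replicate 2.

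Markers of other cells and of tissue handling moved between the same arrays, and their part in the members' differences was not tested. The 24 measured leukocyte markers had summed signals of 3898, 7230 and 6525 on replicates 1, 2 and 3, of which 3 were detected (Lyz2, Fcer1g and Laptm5), and 14 were lowest on replicate 1. None was at 0. On every array 19 of the 24 lay below the cutoff, among them Ptprc (64.5, 55.4 and 122), Itgam (17.1, 12.8 and 17.8), Cd3e (50.8, 68.7 and 72.7) and Cd68 (169.8, 154 and 153). The monocyte markers Cd14 (189, 567 and 547) and Csf1r (202, 329 and 404) were lowest on replicate 1 and above the cutoff on replicates 2 and 3. Laptm5, Ptprc, Itgam and Cd68 were not lowest on replicate 1. The 11 endothelial markers summed to 16629, 28555 and 26024, 9 were detected, led by Esam and Plvap, and 10 were lowest on replicate 1. Vcam1 and Icam1 are made by endothelium too. The 5 thin limb markers, led by Cryab and Aqp1, summed to 27326, 72996 and 41454, with all 5 highest on replicate 2, the array on which most interferon-stimulated members were highest.

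Proximal tubule markers, led by Kap and Hao2, summed to 8282, 27002 and 79318, with 16 of 18 highest on replicate 3, and principal cell markers, led by Tfcp2l1 and Aqp2, to 12113, 17334 and 27107, with 9 of 10 highest there. Fibroblast and mural cell markers, led by Cspg4 and Acta2, summed to 2926, 6014 and 6499.6. Of 20 immediate early and heat shock genes, which respond to tissue handling, 17 were detected, 16 were lowest on replicate 1 and 17 highest on replicate 3, with sums of 224729, 262758 and 341651 led by Hspa1a and Egr1. The heat shock genes were not highest on replicate 3. Hspa1a had 42136, 48764 and 40057, lowest on replicate 3, and Dnajb1 had 28105, 27302 and 27739. Of this list Atf3 had 7444, 11349.9 and 24573 and Fosb 2537, 4916 and 11468 (both chosen after their values were seen), the same order over the arrays as Nfkbia and Irf1. The 3' control probe set exceeded the 5' one, a gap that widens with RNA degradation, by log2 values of 1.48, 1.18 and 1.95 for beta-actin and 0.508, 0.426 and 0.601 for Gapdh on replicates 1, 2 and 3. It was highest on replicate 3, the array on which the chemokines and inhibitors were highest, and lowest on replicate 2.

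**Figure D5:**
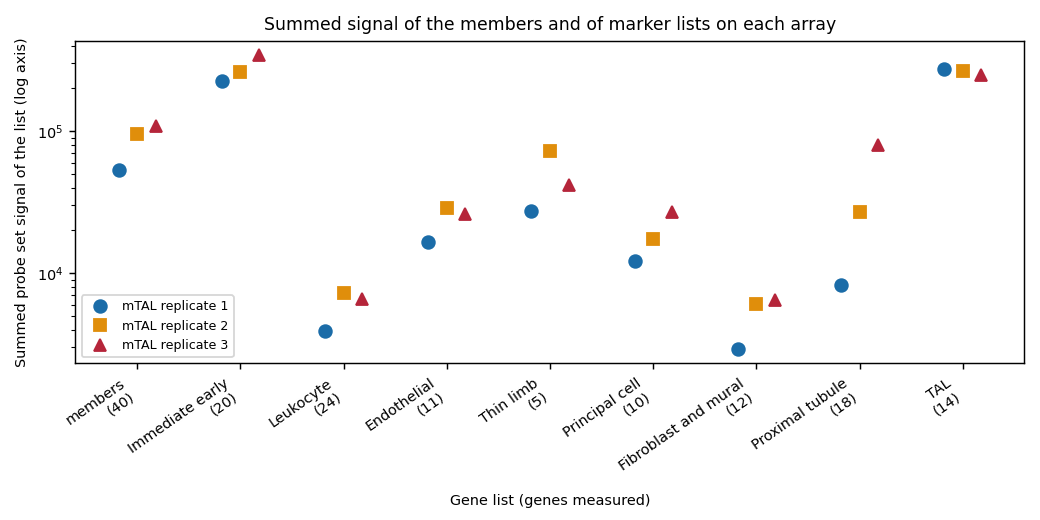
Summed probe set signal (y axis, log scale) of the 40 measured members and of 8 marker lists (x axis, with the number of genes measured) on mTAL replicates 1 (circles), 2 (squares) and 3 (triangles). The members sum to 53093, 94921 and 108687 on replicates 1, 2 and 3, and every list except TAL is lowest on replicate 1.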

How the data were processed

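The authors deposited linear intensity values for 31099 probe sets, 57 of them controls, that range between 0.217 and 94710. The summary method, software and normalization are not given in the sources used here. Trizol RNA was turned into biotin-labelled cRNA, per the labels' protocols. Signals were taken as log2 without a pseudocount or further scaling. In the platform annotation 20826 probe sets had 1 gene, 436 had several and 9780 had none. Of the identifiers, 20758 were found in the RefSeq table of GRCr8, and no symbol changed. Promoter windows are RefSeq's, from GRCr8.

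Detection was fitted over all 14217 genes with limma 3.58.1 in R 4.3.3 (lmFit and eBayes, intercept only) and was tested on simulated data. The cutoff genes, 77 of 83 listed, leave out Myh1, whose annotation had been called into question. The cutoff lies near the signals of Lhb, Tnni2 and Ins1 and rests on few genes. The same test called 3 of the 77 genes detected, Cela1, Krt10 and Mbp. A call therefore does not mean a signal above every cutoff gene. Arrays were grouped by sample title. Precision is limited by the number of arrays.

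The members, gene lists, tests and naming rules were chosen with earlier results of these data known. Every measured member is named. Of the other pathway lists, the 6 detected genes with the highest signal and the 4 with the widest span are named, and of marker lists the 2 with the highest signal. Other marker genes named (Laptm5, Ptprc, Itgam, Cd3e, Cd68, Cd14, Csf1r, Atf3, Fosb and Dnajb1) were chosen after their values were seen. Alternatives covered normalization, a pseudocount, the cutoff, probe set choice, a filter on dim genes and each replicate left out.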

Additional observations from a re-analysis of the deposited data

How the results depend on the processing

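The number of detected members was 22 with quantile normalization, a common 75th percentile or a pseudocount of 16, and 28, 17 and 19 without replicates 1, 2 and 3. The cutoff moved it most, to 32 at the 90th percentile, 5 at the 99th and 40 at the highest TrpnX control. Over all genes, 7718 were detected in the main setting and 7665 with quantile normalization. Where no count over all genes is given, a change is not read as particular to the members. At the 99th percentile 3849 of all genes, 17 of the other NF-kappaB genes and 16 of the other interferon genes were detected. The mean log2 signal of 7 called members then lay below the cutoff, by the differences -0.71 (Relb), -1.02 (Nfkb2), -0.24 (Nfkbib), -0.32 (Irf9), -1.32 (Oas1a), -0.12 (Ifit2) and -0.46 (Tap1). That of Tap1 was -0.90 when its probe sets were averaged. Bcl3 lay 0.97 above the 90th percentile. Above TrpnX, members below the main cutoff lay at 2.68 (Bcl3), 2.12 (Tlr2), 1.09 (Tlr4), 2.22 (Cxcl2), 1.89 (Ccl20), 1.31 (Il1b), 1.82 (Tnf), 1.50 (Irf8) and 0.84 (Socs1). Replicate 1 was the lowest array for 36 members under either normalization and with the pseudocount, and 35 with probe sets averaged. Replicate 2 was highest for 16 to 19 members and replicate 3 for 21 to 24 under these 4 settings.

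With only the genes above the median gene, 10 members and 274 of all genes spanned 2-fold, 20 members were lowest on replicate 1 and 10 highest on replicate 3, since fewer genes entered. The members spanning 2-fold numbered 8, 20 and 16 without replicates 1, 2 and 3, and all genes 2226 to 2542. With 1 array fewer, 1 to 4 members were highest on replicate 1, 18 to 36 on replicate 2 and 22 to 39 on replicate 3. No paired analysis was possible because the samples form 1 group.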

Other observations

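The motif matches were also counted over all genes with a mean signal above the cutoff and a single promoter window, 6828 genes of which 25 are members. Replicate 1 was the lowest array for 30.4% of them, for 35.7% of the 642 with a kappaB match and for 35.8% of the 190 with an ISRE core match. The signal spanned 2-fold or more for 5.29% of all, 7.79% of those with a kappaB match and 12.6% of those with an ISRE core match. Of the 22 genes with both matches, 4 of them members, 11 were lowest on replicate 1 and 7 spanned 2-fold. Members were also 12 of the 642 genes with a kappaB match and 9 of the 190 with an ISRE core match. They were picked for differences between arrays, so the shares of these groups follow partly from that choice and were not tested. The median difference of replicate 3 minus replicate 1 was 0.0400 log2 units for genes with an ISRE core match, 0.00578 for those with a kappaB match and -0.00575 for all 6828 genes.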
